A study of Danio rerio with 4 samples.

Results

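Notch receptors and transcription factors of the Hairy-related family, which includes Notch targets, were followed in the injured zebrafish ventricle. Fish with a transgene meant to trap the lymphangiogenic ligand Vegfc were compared with fish without it. The genes asked for by symbol were *notch1a*, *notch1b*, *notch2*, *notch3*, *hey1*, *hey2*, *heyl*, *her6*, *her9* and *hes6*. Of these 10 genes, 9 were matched among the 17221 genes of the table, and *heyl* is not analysed here. All 9 had a mean over 10 normalized reads and entered the test.

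Adult fish of strain AB were given a cryoinjury, a local freezing wound of the ventricle, and were then heat-shocked at 39 °C in both groups. The Tg(hsp70l:sflt4) fish carry a transgene in which the *hsp70l* heat-shock promoter, active throughout the body after heat shock, drives sflt4, the Vegfc receptor Flt4 without its anchor in the membrane, which captures ligand before it reaches cells. The WT fish lack it. Ventricles were collected 24 h after injury, and each group had 2 libraries, each from a pool of 3 ventricles, which averages over fish and over all cell types of the ventricle. The study sought targets of Vegfc signaling in cardiac regeneration.

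Notch receptors are single-pass membrane proteins that are cleaved when a Delta or Jagged ligand on a neighbouring cell binds them. The released intracellular domain joins the DNA-binding protein Rbpj and switches on target genes, among them the *hey* and *her* genes, which code for basic helix-loop-helix repressors. In the injured zebrafish heart the pathway is known for its activity in the endocardium, the inner lining of the ventricle, and in the epicardium.

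Estimated reads counted in genes were between 29000000 and 34800000 per library. Muscle markers of the ventricle were abundant, with *myl7*, a cardiac myosin light chain gene, at 204313 and 245157 normalized reads in Tg(hsp70l:sflt4) libraries and 335222 and 316610 in WT libraries. No matched gene of the marker lists for endocardium and endothelium, mural cells, epicardium, cardiomyocytes, leukocytes or erythrocytes was at 0 in any library. Of the 12 cardiomyocyte genes 11 were matched, and the ventricular myosin gene *vmhc* was not. The *flt4* gene read 504 and 538 in Tg(hsp70l:sflt4) libraries and 618 and 515 in WT libraries (log2 difference -0.12, SE 0.17, limma adjusted p = 0.823). This value does not test the labels, because it is unknown here which part of the gene the transgene shares. Across the 17071 genes tested, limma called 0 at an adjusted p under 0.05, with a smallest adjusted p of 0.154. An unadjusted limma p under 0.05 was reached by 1881 genes (11%). By the log2 difference, those higher in Tg(hsp70l:sflt4) made up 5.57% of all genes tested and those lower 5.45%. The tool limma-voom also called 0. Single libraries mattered to this count: 3 genes were called on leaving out Tg(hsp70l:sflt4) replicate 1, 250 on leaving out WT replicate 1 and 75 on leaving out WT replicate 2, and none of the 9 genes was among them. The values of the 4 libraries allow no exact permutation p below 0.333 for a single gene.

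Among the 9 genes, *hey1* stood furthest apart, with 57.0 normalized reads on average in Tg(hsp70l:sflt4) ventricles and 110.5 in WT ventricles. *her6* had higher values in both Tg(hsp70l:sflt4) libraries, while the receptors *notch1a*, *notch1b* and *notch3* had lower means there and *notch2* was nearly level. By the log2 difference 6 genes were lower in Tg(hsp70l:sflt4) and 3 higher. Among the 3 was *her9*, whose mean of normalized reads was slightly lower, at 1039.5 in Tg(hsp70l:sflt4) and 1043 in WT. None of the 9 passed the test, against 0% of all genes tested. The groups did not overlap for 5 genes, 2 of them higher and 3 lower in Tg(hsp70l:sflt4), against 43.2% of all genes tested (21.8% higher and 21.4% lower). The median log2 difference, Tg(hsp70l:sflt4) minus WT, was -0.27 over the 9 genes and -0.01 over all genes tested. It was -0.0154 over the 9 genes when WT replicate 1 was dropped and -0.418 when WT replicate 2 was dropped. In a bulk sample, fewer cells of a type and less RNA per cell cannot be told apart.

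**Figure D1:**
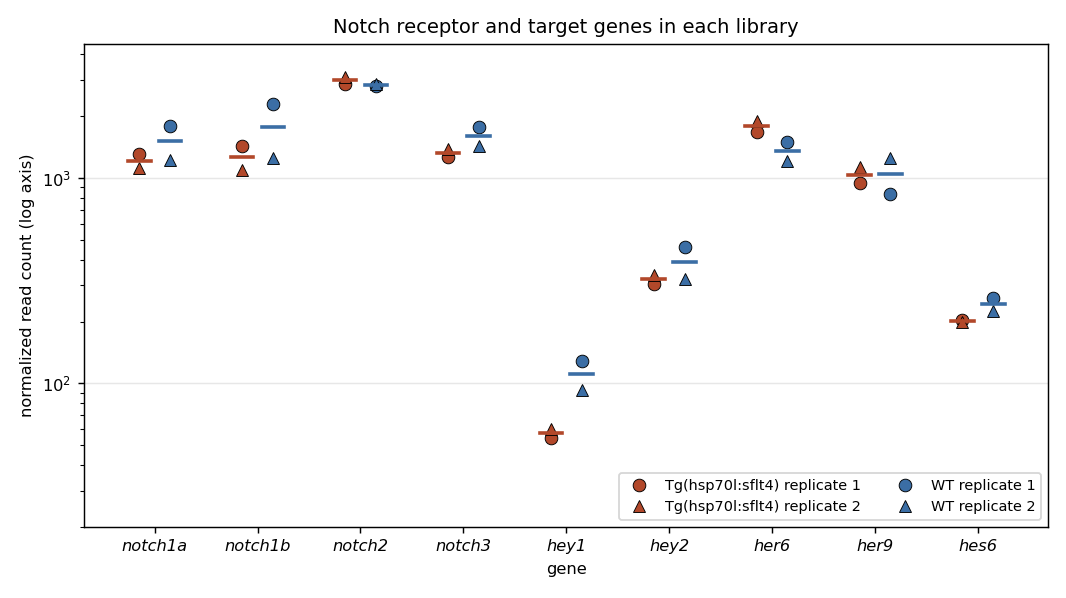
Normalized read counts (log axis) of the 9 genes in each library, with Tg(hsp70l:sflt4) left of WT, replicate 1 as circles, replicate 2 as triangles and group means as bars. *hey1* shows the widest gap, at 54 and 60 in Tg(hsp70l:sflt4) libraries and 128 and 93 in WT libraries, and *notch2* the narrowest spread.

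The receptors come first. *notch1b* (ENSDARG00000052094, chromosome 5, 65679595 to 65782785, minus strand, danRer11), one of a pair of zebrafish genes for the Notch1 receptor, had 1432 and 1092 normalized reads in Tg(hsp70l:sflt4) libraries, against 2307 and 1252 in WT libraries. WT replicate 1 was far above the other libraries, and WT replicate 2 lay between the transgenic ones, so the groups overlapped. Means were 1262 ± 240 in Tg(hsp70l:sflt4) and 1780 ± 746 in WT (SD, n = 2 each), and the difference was -0.44 on the log2 scale (SE 0.31, limma adjusted p = 0.636). Leaving out WT replicate 1 brought the log2 difference to -0.00172, and leaving out WT replicate 2 brought it to -0.88 (limma adjusted p = 0.136).

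*notch1a* (ENSDARG00000103554, chromosome 21, 4766244 to 4849056, minus strand), the other Notch1 gene, had 1316 and 1115 normalized reads in Tg(hsp70l:sflt4) libraries and 1803 and 1218 in WT libraries. Its libraries stood in the same order as those of *notch1b*, with WT replicate 1 highest and an overlap of the groups. Its log2 difference of -0.29 (SE 0.22, limma adjusted p = 0.661) became -0.00790 without WT replicate 1 and -0.57 when WT replicate 2 was dropped. The ratio of *notch1b* to *notch1a* reads was 1.09 and 0.979 in Tg(hsp70l:sflt4) libraries and 1.28 and 1.028 in WT libraries. A possible division of reads between the paralogues was not checked.

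*notch3* (ENSDARG00000052139, chromosome 3, 53526025 to 53559581, minus strand) codes for a receptor known in mammals from vascular smooth muscle and pericytes. It had 1262 and 1383 normalized reads in Tg(hsp70l:sflt4) libraries and 1765 and 1433 in WT libraries. Every transgenic value lay below every WT value, though WT replicate 2 exceeded the nearer transgenic library by little. Its log2 difference of -0.27 (SE 0.16, limma adjusted p = 0.579) became -0.12 without WT replicate 1 and -0.42 when WT replicate 2 was dropped.

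*notch2* (ENSDARG00000043130, chromosome 8, 19548985 to 19619792, plus strand) was the receptor with the least spread among libraries. It had 2888 and 3112 normalized reads in Tg(hsp70l:sflt4) libraries and 2819 and 2868 in WT libraries. The groups did not overlap, but the gap between 2888 in Tg(hsp70l:sflt4) and 2868 in WT was smaller than the spread within either group. The log2 difference was 0.08, with a 95% interval of -0.25 to 0.41 (SE 0.13, limma adjusted p = 0.859). Of the receptors it was the only gene with a higher mean in Tg(hsp70l:sflt4).

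Since *notch2* was higher and *notch3* lower in Tg(hsp70l:sflt4) without overlap, their ratio could not overlap between the groups and adds nothing to the single values. It was 2.29 and 2.25 in Tg(hsp70l:sflt4) libraries and 1.597 and 2.001 in WT libraries. Of the 36 ratios between the 9 genes, 17 did not overlap, and this ratio has no test. A ratio of genes within a library is free of that library's scaling. The ratio of *notch2* to *notch1b* overlapped, at 2.02 and 2.85 against 1.22 and 2.29. Gene lengths in the mature transcript were not used here, so levels are not ranked between genes.

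The Hairy-related genes follow, beginning with the Hey genes. *hey1* (ENSDARG00000070538, chromosome 19, 31797567 to 31802296, minus strand) codes for a repressor that is a direct Notch target in mammalian endothelium. It had 54 and 60 normalized reads in Tg(hsp70l:sflt4) libraries and 128 and 93 in WT libraries. The transgenic libraries were close together and both below the lower WT library. The means of 57.0 ± 4.24 in Tg(hsp70l:sflt4) and 110.5 ± 24.7 in WT (SD, n = 2 each) differed by -0.93 on the log2 scale with a 95% interval of -1.70 to -0.16 (SE 0.31, limma unadjusted p = 0.0259, adjusted p = 0.397). On that scale the WT level was 1.901-fold higher. With all 4 libraries *hey1* was the only one of the 9 genes with an unadjusted p under 0.05, which 5.45% of genes reached on the lower side, and 1114th of the 17071 genes when ordered by p. Its unadjusted limma p was 0.123 when Tg(hsp70l:sflt4) replicate 1 was dropped, 0.0840 when Tg(hsp70l:sflt4) replicate 2 was and 0.0975 when WT replicate 1 was.

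*hey1* had the fewest reads of the 9 genes, so counting error weighs most on it. From an estimate of each library's size factor, its values rested on 59 and 53 reads in Tg(hsp70l:sflt4) libraries and 131 and 94 in WT libraries. Exact Poisson intervals at 95%, which cover counting error only, were 40.9 to 69.4 and 44.9 to 78.3 normalized reads in Tg(hsp70l:sflt4) libraries, against 107.3 to 152.3 and 74.9 to 113.4 in WT libraries. The intervals of WT replicate 2 and Tg(hsp70l:sflt4) replicate 2 overlapped slightly. The log2 difference was between -1.16 and -0.70 when each library was left out in turn.

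*hey2* (ENSDARG00000013441, chromosome 20, 39588897 to 39596338, minus strand), known in zebrafish as gridlock for its role in artery formation and also active in ventricular muscle, did not repeat that gap. It had 304 and 338 normalized reads in Tg(hsp70l:sflt4) libraries and 460 and 324 in WT libraries. WT replicate 1 was high and WT replicate 2 lay between the transgenic libraries. Its log2 difference was -0.27 (SE 0.23, limma adjusted p = 0.693), and -0.02 without WT replicate 1.

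The ratio of *hey2* to *hey1* reads was even within groups and apart between them. It was 5.63 and 5.63 in Tg(hsp70l:sflt4) libraries and 3.59 and 3.48 in WT libraries. With a counting error of *hey1* between 8.74% and 13.7% of its value, the evenness within groups is closer than counting alone would give. This ratio was picked after its values were seen, among 36 ratios of which 17 did not overlap between groups, and it has no test.

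**Figure D2:**
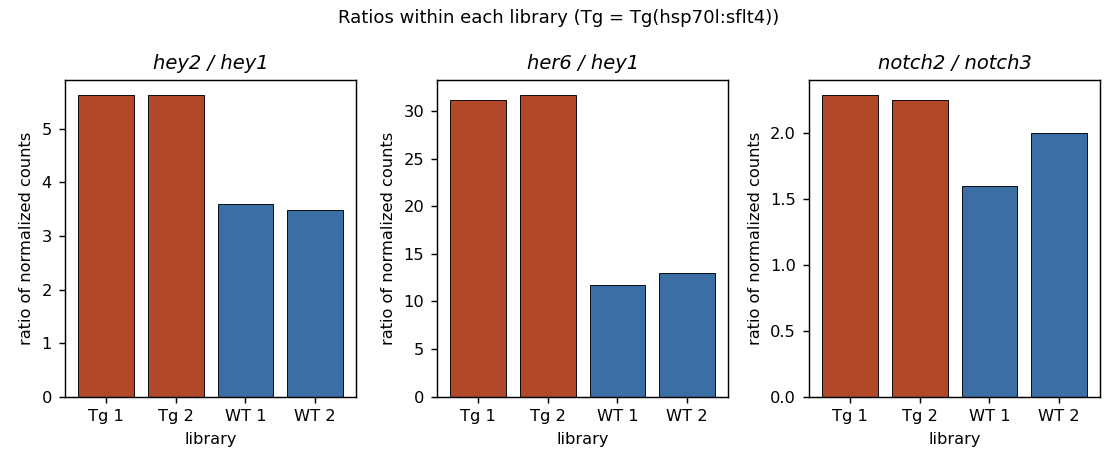
Ratios of normalized read counts of gene pairs within each library. Tg(hsp70l:sflt4) replicates 1 and 2 stand left of WT replicates 1 and 2, and each vertical axis starts at 0. Of 36 ratios between the genes, 17 did not overlap between groups. The bars of *hey2* over *hey1* (5.63 and 5.63 against 3.59 and 3.48) and of *her6* over *hey1* (31.2 and 31.7 against 11.7 and 12.96) separate the groups. Those of *notch2* over *notch3* do so by less. In *her6* over *hey1* and *notch2* over *notch3*, a gene higher without overlap is divided by one lower without overlap, so these ratios could not overlap.

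*her6* (ENSDARG00000006514, chromosome 6, 36551083 to 36552844, minus strand), the zebrafish relative of mammalian Hes1, went against the Hey genes. It had 1683 and 1901 normalized reads in Tg(hsp70l:sflt4) libraries and 1500 and 1205 in WT libraries. Both transgenic libraries were above both WT libraries. Means were 1792 ± 154 in Tg(hsp70l:sflt4) and 1352.5 ± 209 in WT (SD, n = 2 each), and the log2 difference was 0.41 (SE 0.17, limma unadjusted p = 0.05001, adjusted p = 0.453). Leaving out single libraries gave 0.25 to 0.57, the highest value being that without WT replicate 1 (limma adjusted p = 0.162). The ratio of *her6* to *hey1* was 31.2 and 31.7 in Tg(hsp70l:sflt4) libraries and 11.7 and 12.96 in WT libraries, the widest gap among the 36 ratios. With *her6* higher and *hey1* lower without overlap, this ratio could not overlap.

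*her9* (ENSDARG00000056438, chromosome 23, 23399520 to 23401305, minus strand), another hairy-related repressor gene, had 948 and 1131 normalized reads in Tg(hsp70l:sflt4) libraries and 836 and 1250 in WT libraries. The WT libraries lay on either side of the transgenic ones, in the reverse of their order for *hey1*, *notch1a* and *notch1b*. The log2 difference was 0.02, with a 95% interval of -0.55 to 0.58 (SE 0.23, limma adjusted p = 0.982).

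*hes6* (ENSDARG00000019335, chromosome 2, 48288461 to 48304696, plus strand) codes for a divergent family member that in mammals counteracts Hes1. It had 203 and 199 normalized reads in Tg(hsp70l:sflt4) libraries and 260 and 225 in WT libraries. All transgenic values were below the WT values, and the difference was -0.27 on the log2 scale (SE 0.20, limma adjusted p = 0.664). *hes6* overlaps *itm2cb* on the other strand, which read 564 and 629 in Tg(hsp70l:sflt4) libraries and 462 and 437 in WT libraries. The library kit marks strand, but no source used here says that counting used it, so reads at the overlap are uncertain. None of the other 8 genes overlaps another gene of the table. The ratio of *her6* to *hes6* was 8.29 and 9.55 in Tg(hsp70l:sflt4) libraries and 5.77 and 5.36 in WT libraries. With *her6* higher and *hes6* lower without overlap, this ratio could not overlap either.

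**Figure D3:**
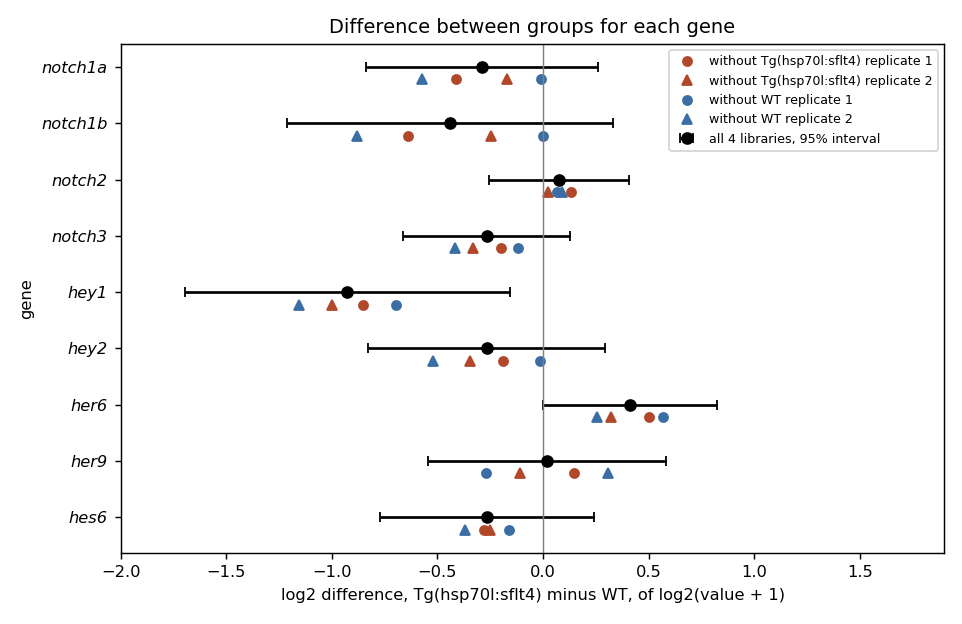
Log2 difference, Tg(hsp70l:sflt4) minus WT, of log2(value + 1) for each gene, with black points and 95% intervals from all 4 libraries and coloured marks for the difference without 1 library. The interval of *hey1* (-1.70 to -0.16) lies below 0, and the values of *notch1a*, *notch1b* and *hey2* come to nearly 0 when WT replicate 1 is left out.

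WT replicate 1 was the highest library for 6 of the 9 genes, against 29.3% of all genes tested, and the lowest for 2, *notch2* and *her9*. The median log2 deviation of the 9 genes from their own means over the 4 libraries was -0.12 in Tg(hsp70l:sflt4) replicate 1 and -0.07 in Tg(hsp70l:sflt4) replicate 2, against 0.28 in WT replicate 1 and -0.03 in WT replicate 2. The same library was above the mean for the marker lists other than that of leukocytes (median deviation -0.08). The 18 endocardium and endothelium markers had a median deviation of 0.18 there and the 6 epicardium markers 0.58. The part of these cell types in the high *notch1a*, *notch1b* and *hey2* values of that library was not tested.

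The endocardium and endothelium markers as a list were nearly level, with 7 higher and 11 lower in Tg(hsp70l:sflt4) and a median log2 difference of -0.06. Their summed reads were 80008 and 73080 in Tg(hsp70l:sflt4) libraries and 89684 and 76745 in WT libraries. *cdh5*, the VE-cadherin gene, read 11169 and 11147 in Tg(hsp70l:sflt4) libraries and 10696 and 11008 in WT libraries, while the sialomucin gene *podxl* (15587 and 12699 against 22130 and 15709) and the Vegf receptor gene *kdrl* (8563 and 7287 against 11024 and 9678) had lower values. When the libraries were scaled to equal sums of these markers, a choice made after the data were seen, *hey1* read 53.9 and 65.6 in Tg(hsp70l:sflt4) libraries and 114 and 96.8 in WT libraries, still without overlap (log2 difference -0.81, limma adjusted p = 0.450). *notch1b* then read 1429.7 and 1194 in Tg(hsp70l:sflt4) libraries and 2055 and 1303 in WT libraries.

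Mural markers, which belong to the cells known for *notch3*, had 3 genes higher and 9 lower, with a median log2 difference of -0.31 that rested on single libraries. It was 0.0154 without Tg(hsp70l:sflt4) replicate 2, 0.0194 without WT replicate 1 and -0.799 without WT replicate 2. Their summed reads were 115495 and 109383 in Tg(hsp70l:sflt4) libraries and 98298 and 105635 in WT libraries, a sum led by *desma*, which heart muscle also expresses. *acta2*, for smooth muscle actin, read 1767 and 2130 in Tg(hsp70l:sflt4) libraries and 3889 and 2121 in WT libraries. *myh11a*, which had a higher mean than *acta2*, was nearly level at 3428 and 3301 against 3602 and 3382 (log2 difference -0.05). Set against *pdgfrb*, a pericyte receptor gene outside the choice of markers by mean, *notch3* gave ratios of 0.767 and 0.729 in Tg(hsp70l:sflt4) libraries. They were 0.845 and 0.854 in WT libraries. *pdgfrb* itself overlapped between groups. Also outside that choice, *rgs5a*, *abcc9* and *kcnj8* were lower without overlap (log2 differences -1.14, -1.02 and -1.12), so a ratio to *pdgfrb* does not stand for the list. Of the mural markers 2 were higher and 3 lower without overlap, against 21.8% and 21.4% of all genes tested. The part of mural cells in the *notch3* values was not tested.

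Leukocyte markers had 6 genes higher and 4 lower, and their summed reads were 52745 and 71577 in Tg(hsp70l:sflt4) libraries and 43753 and 44821 in WT libraries, on the same side as *her6*. The actin-bundling gene *lcp1* (21048 and 29751 against 14852 and 15781) and the coronin gene *coro1a* (9018 and 11983 against 5930 and 6466) had the highest means of this list. The list itself was split, with 4 genes higher and 4 lower without overlap, against 21.8% and 21.4% of all genes tested. Among the lower ones were the macrophage receptor gene *csf1ra* (1165 and 829 against 2129 and 1179) and *cd74a* (1028 and 1558 against 2123 and 1640), named after their values were seen. Its median log2 difference of 0.08 became 0.35 when Tg(hsp70l:sflt4) replicate 1 was dropped and -0.19 when Tg(hsp70l:sflt4) replicate 2 was. The part of leukocytes in the *her6* values was not tested. Cardiomyocyte markers, beside *hey2*, summed to 910739 and 948218 in Tg(hsp70l:sflt4) libraries and 1150525 and 1113639 in WT libraries, with 3 rows higher and 9 lower. Their part in the *hey2* values was not tested either.

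**Figure D4:**
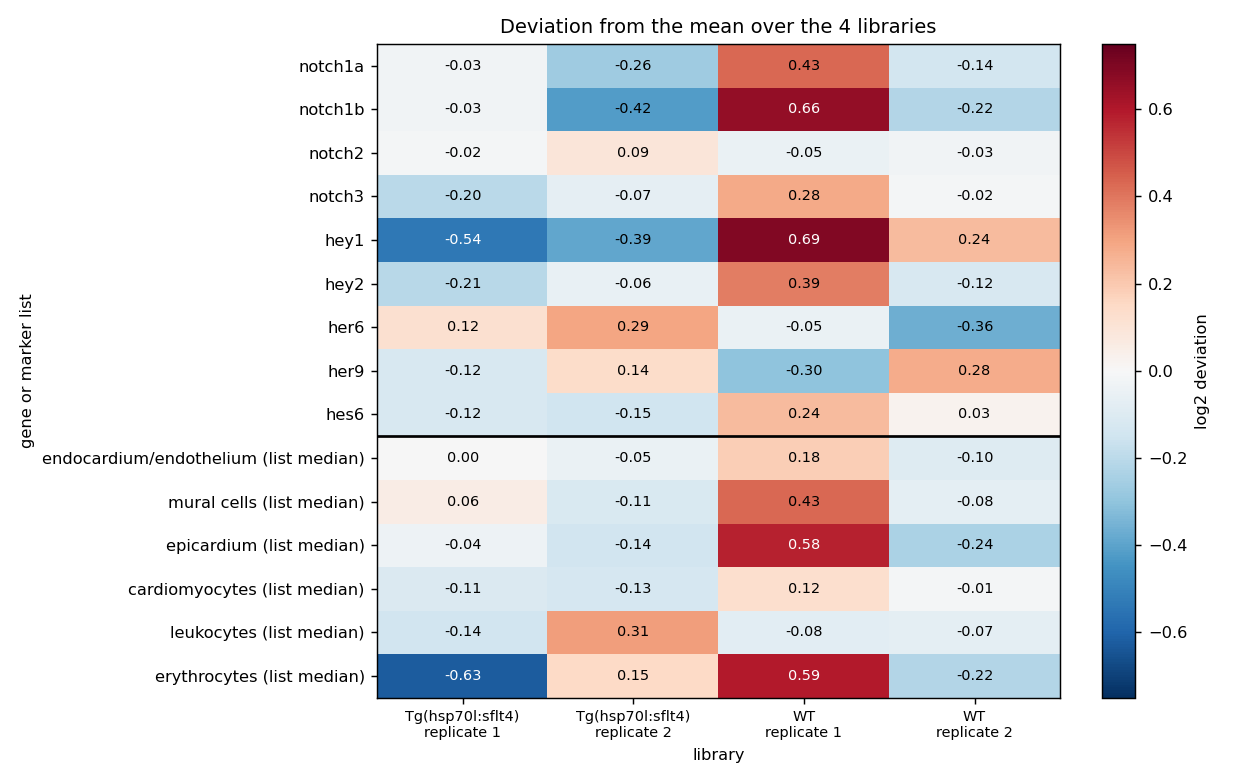
Log2 deviation of each gene from its own mean over the 4 libraries (rows above the line) and the median deviation of each marker list (rows below it), by library. WT replicate 1 is high for *hey1* (0.69) and *notch1b* (0.66) and also for epicardium (0.58) and erythrocyte markers (0.59), while *hey1* is below its mean in both Tg(hsp70l:sflt4) libraries.

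The rest of the pathway was described by 6 lists of 74 genes ordered by role, of which 50 were tested. None passed the test. By their log2 differences 18 were higher and 32 lower in Tg(hsp70l:sflt4), against 51.3% lower among all genes tested. The groups did not overlap for 25 genes, 10 higher and 15 lower, near the 43.2% of all genes tested (21.8% higher and 21.4% lower). At an unadjusted p under 0.05 there was 1 gene higher and 4 lower, against 5.57% and 5.45% of all genes tested.

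Of 9 ligand symbols 7 were matched. These ligand genes had lower means throughout, with 7 of 7 lower (51.3% of all genes tested) and 5 of them without overlap (21.4% of all genes tested). Their median log2 difference was -0.33. The log2 difference was -0.81 for the Delta gene *dlc* (limma adjusted p = 0.308) and -0.91 for the Jagged gene *jag1a*, which had 33 and 32 normalized reads in Tg(hsp70l:sflt4) libraries and 50 and 77 in WT libraries. *jag1b* read 232 and 238 in Tg(hsp70l:sflt4) libraries against 310 and 282 in WT libraries, and *jag2b* 1042 and 1061 against 1240 and 1114. *dll4*, the ligand gene with the most reads and named after its values were seen, overlapped between groups at 2400 and 1622 against 2406 and 2191. Fringe and glycosylation genes, whose enzymes add sugars to the receptor, had 4 of 5 higher, with *mfng* at a log2 difference of 0.48 and *lfng*, the exception, at -0.55. *poglut1* and *pofut1*, which attach the first sugars, had 415 and 419 against 382 and 306, and 491 and 476 against 468 and 376.

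Genes for receptor cleavage were split, with 4 higher and 6 lower and a median log2 difference of -0.03. The gamma-secretase genes *aph1b* (1797 and 2272 in Tg(hsp70l:sflt4) libraries against 1327 and 1797 in WT libraries) and *psen2* (1021 and 1136 against 771 and 1148) had higher means. The protease gene *adam17b* had 108 and 45 against 129 and 73. The nuclear complex had 6 higher and 7 lower, with a median of -0.01. Here the corepressor genes *spen* (1138 and 959 against 1427 and 1341) and *ncor1* (3261 and 3216 against 5012 and 3424) had lower values, and the deacetylase gene *hdac1* (5909 and 6869 against 4944 and 5123) had higher ones. *rbpja*, for the DNA-binding partner of the receptor, read 653 and 588 in Tg(hsp70l:sflt4) libraries and 606 and 614 in WT libraries, and was named after its values were seen.

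Trafficking and turnover genes had 2 higher and 7 lower, with a median log2 difference of -0.08. Ubiquitin ligase genes led them, with *itcha* at 123 and 90 normalized reads in Tg(hsp70l:sflt4) libraries and 141 and 161 in WT libraries, and *mib1*, which acts on the ligands, at 1562 and 1488 against 1808 and 1644. *fbxw7*, whose product marks the cleaved receptor for degradation, read 321 and 271 against 250 and 236, and *itchb* 52 and 44 against 26 and 45. A further direct target in this list, the feedback gene *nrarpa*, named after its values were seen, overlapped between groups at 2117 and 1981 in Tg(hsp70l:sflt4) libraries and 2460 and 1911 in WT libraries.

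Of 21 symbols of other hairy-related genes 7 were matched and 6 tested, with 2 higher and 4 lower. The *her* genes among them had few reads in all libraries, and *her15.1* and *her15.2* were the 2 higher ones. *her7*, a segmentation clock gene, had 28 and 33 normalized reads in Tg(hsp70l:sflt4) libraries and 43 and 52 in WT libraries, and *her15.2*, which has a close copy among which reads can be split, 35 and 20 against 23 and 13. The clock-linked repressor genes *bhlhe40* (2515 and 1690 against 3806 and 3181) and *bhlhe41* (1227 and 1263 against 1441 and 1516) were both lower without overlap, with log2 differences of -0.75 (SE 0.23, limma adjusted p = 0.366) and -0.25 (SE 0.13, limma adjusted p = 0.539).

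**Figure D5:**
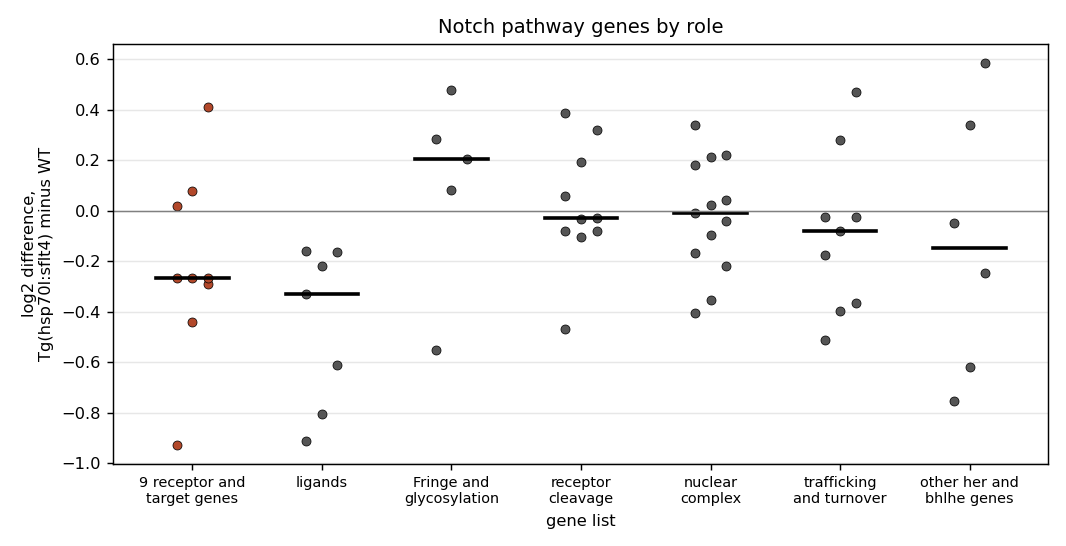
Log2 difference, Tg(hsp70l:sflt4) minus WT, of each tested gene, with each list's median as a bar. The 9 genes are in colour at the left and the 6 lists of other Notch pathway genes in grey. All 7 ligand genes lie below 0, 4 of 5 Fringe and glycosylation genes lie above it, and the lists for cleavage and the nuclear complex have medians near 0.

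The genes whose profile over the 4 libraries was most like that of *hey1* were sought among 13883 genes with a mean of at least 50, by the root mean square distance of log2 deviations. They were *CABZ01078594.1* (811 and 843 normalized reads in Tg(hsp70l:sflt4) libraries, 1865 and 1314 in WT libraries), the thioesterase gene *acot14* (67 and 71 against 151 and 118) and the claudin gene *cldn11a* (42 and 49 against 96 and 71), at distances of 0.04, 0.04 and 0.05. Within a distance of 0.1 there were 14 genes. With 4 libraries such a match is a description only.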

How the data were processed

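Messenger RNA of 4 ventricle pools was sequenced from 500 ng of total RNA with a stranded kit, per the labels. The submitters' processing notes name danRer11, DESeq2 1.18.1, featureCounts 1.6.3 and Trimmomatic 0.38, without role. No source used here names the aligner. The deposited values are scores, that is, read counts scaled per library by a size factor and then rounded, as the near-equal medians of 328 to 335 show. Rounding leaves a pattern in the whole numbers, from which size factors of 0.885 to 1.10 and read totals were estimated.

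limma 3.58.1 in R 4.3.3 was run, with trend and robust moderation, on log2(value + 1) for 17071 genes whose mean was 10 or more, with Benjamini-Hochberg adjustment over all of them and a threshold of 0.05. Fold changes on this scale understate those of low genes. The step was tested on simulated data with changes larger than those of the genes followed here. That test does not show how readily differences of their size would be called. How pools were formed is unknown, so the p-values cover only the spread between these libraries, which may be technical.

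The genes and lists were chosen with earlier results of these data known. Named were all 9 matched genes, at most 4 genes per pathway list by unadjusted p, at most 3 markers per list by mean, and the 3 genes most like the member with the smallest p; not all markers were needed, and some items are not reported here. Alternatives changed the pseudocount, filter, scaling, moderation, tool, replicate block and libraries.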

Additional observations from a re-analysis of the deposited data

How the results depend on the processing

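The 9 genes kept their direction under 13 alternatives, except *her9*, whose log2 difference of 0.02 became -0.11 without Tg(hsp70l:sflt4) replicate 2 and -0.27 without WT replicate 1 (range -0.271 to 0.308 when single libraries were left out); none of the 9 was called under any of them. The count of genes called over the table, 0 with all libraries, was 0 to 250 when single libraries were left out (3 on leaving out Tg(hsp70l:sflt4) replicate 1, 250 on leaving out WT replicate 1 and 75 on leaving out WT replicate 2), and 134 with equal sums of endothelial markers, a setting chosen after seeing the data. Equal totals shifted the median of all genes by 0.11 and that setting by 0.12 (log2), and genes at an unadjusted p under 0.05 were then 1584 higher and 548 lower, and 1188 higher and 535 lower, against 951 and 930.

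Medians of the pathway lists moved by more than their spread between replicates as follows. With equal totals, receptor cleavage genes came to 0.0795, nuclear complex genes to 0.101 and other *her* and *bhlhe* genes to -0.0418. With equal endothelial sums these were 0.0867, 0.108 and -0.0333. Nuclear complex genes came to -0.0140 with equal upper quartiles. Other *her* and *bhlhe* genes came to -0.0488 with no filter. At a mean of at least 50 the list came to -0.501, with only *bhlhe40* and *bhlhe41* left and no *her* gene. Leaving out single libraries gave -0.418 to -0.0154 for the 9 genes, -0.501 to -0.174 for ligands and 0.0805 to 0.362 for Fringe and glycosylation. It gave -0.0362 to 0.122 for cleavage, -0.0965 to 0.0321 for the nuclear complex and -0.246 to 0.0598 for trafficking. For other *her* and *bhlhe* genes it gave -0.368 to -0.00753. Among marker lists, cardiomyocyte genes (-0.23) came to -0.122 with equal totals and -0.115 with equal endothelial sums, epicardium genes (-0.18) to -0.661 and erythrocyte genes (-0.14) to -0.750 without WT replicate 2, and mural and leukocyte genes moved as given with their values. The unadjusted limma p of *her6* was 0.0495 with no filter, 0.0183 with equal totals, 0.0487 with equal endothelial sums and 0.0112 without WT replicate 1, and that of *notch1b* 0.0494 with the replicate block. Without WT replicate 2 it was 0.0154 for *notch1a*, 0.00455 for *notch1b*, 0.0375 for *notch3* and 0.0392 for *hey2*. The cause was not tested. Where 1 library of a group was left, it is assumed to vary like the other group. Counting error was 1.78% to 13.7% of a value over the 9 genes, the highest for *hey1*. The replicate numbers are shared by the groups, but with 2 pairs nothing shows that they mark a pairing (correlation of deviations across genes 0.14); with the replicate block, 0 genes were called and *hey1* had a limma adjusted p of 0.330.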
